A study of Mus musculus with 6 samples.

Results

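Glycolysis turns glucose into pyruvate and lactate, and 10 mouse genes encoding its enzymes were followed in single cells of the embryonic ovary. They are Hk2, Gpi1, Pfkp, Aldoa, Tpi1, Gapdh, Pgk1, Pgam1, Eno1 and Ldha, chosen by symbol, and all 10 were found among the 31053 genes listed. Droplet 3′ libraries came from XX ICR gonads dissociated with papain, 1 for each of the embryonic days E10.5, E11.5, E12.5, E13.5 and E14.5. A sixth library, Induced D6, held gonad somatic cells made from 129svj x C57BL/6J embryonic stem cells. Those cells were grown as aggregates for 6 days, in 3 steps of 2 days each. The factors were CHIR, BMP4 and EGF in the first step, BMP4, retinoic acid, PD0325901, SHH and EGF in the second, and BMP4 and FGF9 in the third. Each group was 1 library with no replicate, so no test was possible, and every interval (95%) covers counting error only.

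Hexokinase, glucose-6-phosphate isomerase and phosphofructokinase prime the sugar, aldolase splits it, and triose phosphate isomerase interconverts the products. Glyceraldehyde-3-phosphate dehydrogenase, phosphoglycerate kinase, phosphoglycerate mutase and enolase then carry each triose towards pyruvate, yielding ATP. Lactate dehydrogenase converts pyruvate and lactate into each other. In the mouse fetal ovary, germ cells leave mitosis and enter meiosis during the stages sampled, while the somatic supporting cells around them become pregranulosa cells. Rapidly dividing and pluripotent cells are known for high glycolysis, and the hypoxia-inducible factor HIF1 is a textbook activator of most of these genes.

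Cell classes were rebuilt here by clustering each library and matching clusters to marker genes, so they are called germ-like, supporting-like, coelomic-epithelium-like and stroma-like. Germ-like cells numbered 18, 311, 581, 1396 and 1160 E10.5 through E14.5, and none were named in Induced D6, where without doublet removal 45 cells matched the germ or pluripotent cell markers. The germ-like class joins clusters named for germ cells with clusters named for germ or pluripotent stem cells. The latter gave 19, 203 and 615 of its cells at E11.5, E12.5 and E13.5 and none at E10.5 and E14.5. Supporting-like cells numbered 853, 1143, 1567 and 776 E11.5 through E14.5 and 1098 in Induced D6. Deposited totals ran from 37606947 to 52146419 UMIs (unique molecules) a library, and 2661 to 7067 cells a library were kept. Cell barcodes shared by any pair of libraries made up 0.537% to 1.61% of the smaller library. Levels are given as CPM, UMIs of a gene per 1e6 UMIs of the class, and the 10 genes' sum is written as summed CPM. Median depth was lower at the later stages alongside the levels described below, at 9832 UMIs per germ-like cell at E14.5 against 21703 at E11.5, and at 6235 per supporting-like cell at E14.5 against 10816 at E11.5. Mitochondrial UMIs made up 6.09% of supporting-like UMIs at E14.5, against 3.72% at E11.5. Haemoglobin UMIs made up 0.0095% and 0.0041% of germ-like UMIs at E11.5 and E12.5, against 0.071% and 0.050% at E13.5 and E14.5. The part of depth, RNA quality and free RNA in the stage differences was not tested. With 1 library for each stage, stage and library differ together and cannot be told apart.

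The start regions of the genes are shown because several of the members are textbook HIF1 targets. In RefSeq windows on GRCm38.p6 (250 bases before to 50 bases after an annotated start), both strands were searched for ACGTG and for GCGTG, the cores of the hypoxia response element. They were also searched for CACGTG, the E-box of MYC and USF factors, within which an ACGTG lies. All 10 genes had a window. ACGTG stood in a window of 6 of the 10 genes (Hk2, Aldoa, Gapdh, Pgk1, Pgam1 and Ldha), against 21.8% of the 27025 genes with a window. GCGTG stood in 5 of the 10 (Pfkp, Gapdh, Pgam1, Eno1 and Ldha), against 35.2% of all genes. Windows rich in G and C hold these letters more often. Of windows with at least 60% GC, 26.5% held ACGTG, 59.2% held GCGTG and 69.2% held either core. Of all windows, 19.6%, 32.4% and 43.8% did. The 15 windows of the members held ACGTG in 7, GCGTG in 8 and either core in 12, and 8 of the 10 genes had either core. Gpi1 and Tpi1 had neither core. CACGTG stood in Ldha alone among the members, against 8.09% of all genes. The 4 windows below belong to the gene with the most cores (Ldha), to a gene with ACGTG only (Pgk1), to the member that was higher in germ-like than in supporting-like cells (Pfkp), and to the one with the largest deficit in germ-like cells that has neither core (Tpi1). Capitals mark the cores on either strand. The windows are Ldha chr7:46845554-46845853 (plus strand, 67.3% GC), Pgk1 chrX:106186850-106187149 (plus strand, 66.7% GC), Pfkp chr13:6648722-6649021 (minus strand, 64.7% GC) and Tpi1 chr6:124814109-124814408 (minus strand, 57.3% GC).
Ldha: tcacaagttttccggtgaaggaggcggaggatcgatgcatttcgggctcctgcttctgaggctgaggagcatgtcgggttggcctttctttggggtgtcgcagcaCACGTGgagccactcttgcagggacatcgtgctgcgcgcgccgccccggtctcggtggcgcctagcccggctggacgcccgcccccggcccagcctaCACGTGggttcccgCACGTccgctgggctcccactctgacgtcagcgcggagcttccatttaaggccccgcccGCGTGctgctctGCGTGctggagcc
Pgk1: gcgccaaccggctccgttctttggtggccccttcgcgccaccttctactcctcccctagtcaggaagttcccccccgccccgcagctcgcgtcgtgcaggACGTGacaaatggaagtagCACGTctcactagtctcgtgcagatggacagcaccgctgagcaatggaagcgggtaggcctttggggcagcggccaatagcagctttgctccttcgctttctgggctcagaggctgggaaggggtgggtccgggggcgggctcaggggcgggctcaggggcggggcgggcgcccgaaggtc
Pfkp: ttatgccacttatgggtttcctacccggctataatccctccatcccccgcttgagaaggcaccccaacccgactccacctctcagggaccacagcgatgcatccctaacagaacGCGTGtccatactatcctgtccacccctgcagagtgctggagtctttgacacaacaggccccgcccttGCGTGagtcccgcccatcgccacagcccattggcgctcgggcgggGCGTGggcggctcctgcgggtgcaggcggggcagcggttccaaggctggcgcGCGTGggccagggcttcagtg
Tpi1: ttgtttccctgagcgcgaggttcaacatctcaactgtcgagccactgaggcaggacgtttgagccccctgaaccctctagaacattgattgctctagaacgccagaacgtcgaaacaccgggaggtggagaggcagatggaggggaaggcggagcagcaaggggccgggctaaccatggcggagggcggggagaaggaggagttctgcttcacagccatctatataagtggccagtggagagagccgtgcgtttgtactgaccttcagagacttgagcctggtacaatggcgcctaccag
The Ldha window held 5 ACGTG matches, 2 GCGTG matches and 2 CACGTG E-boxes, the Pgk1 window 2 ACGTG matches, and the Pfkp window 4 GCGTG matches. Each E-box reads the same on both strands, so it is counted on each strand among the 5 ACGTG matches. A match describes letters in the window and no binding was measured.

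In germ-like cells, transcripts of the whole pathway were lower at every later stage. Summed CPM was 3226, 2051, 1122 and 436 over the stages E11.5, E12.5, E13.5 and E14.5, which put E14.5 at 7.40-fold below E11.5 (7.17 to 7.63). The 18 germ-like cells of E10.5 gave 3318 summed CPM. All 10 genes were at least 2-fold lower at E14.5 than at E11.5. Of the 3703 genes at 50 CPM or more in either class sum, 25.3% passed 2-fold downwards and 29.3% upwards, and the median gene stood at 0.03 on the log2 scale against -2.93 for the 10 enzymes. Per cell, the median was 3.58 UMIs of the 10 genes in 10000 at E14.5, against 32.1 at E11.5.

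Within the first, sugar-priming part of the pathway the members differed most. Hk2 (hexokinase 2, chr6:82725025-82774454, minus strand), which traps glucose as its phosphate, read 14.6, 12.8, 8.65 and 1.63 CPM E11.5 through E14.5, and only 18 UMIs lay behind the last value. Gpi1 (glucose-6-phosphate isomerase, chr7:34201330-34230336, minus strand) read 154, 145, 107 and 69.7 CPM and was the member least reduced, 2.21-fold lower at E14.5 than at E11.5 (2.01 to 2.43). Pfkp (the platelet-type phosphofructokinase, chr13:6579768-6648777, minus strand), an enzyme of the committed step, read 43.1, 19.1, 4.89 and 2.27 CPM, 19.0-fold lower at E14.5 (12.6 to 29.9). Gpi1 thus kept the greater part of its E11.5 level until E13.5, a stage by which Pfkp was already under 5 CPM. Aldoa (aldolase A, chr7:126795234-126800751, minus strand) read 616, 389, 206 and 50.3 CPM, 12.2-fold lower at E14.5 (11.2 to 13.4). Tpi1 (triose phosphate isomerase, chr6:124810586-124814296, minus strand) read 73.7, 34.8, 29.8 and 14 CPM, 5.28-fold lower at E14.5 (4.39 to 6.37).

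The triose-to-pyruvate enzymes were lower too, and Eno1 and Pfkp differed most of the 10, with intervals that overlapped. Gapdh (chr6:125161715-125166467, minus strand), which makes the high-energy acyl phosphate, read 1248, 860, 484 and 195 CPM in germ-like cells E11.5 through E14.5. Pgk1 (chrX:106187100-106203699, plus strand), which makes the pathway's first ATP, read 257, 155, 88.0 and 39.5 CPM. Pgam1 (phosphoglycerate mutase 1, chr19:41911923-41918660, plus strand) read 309, 179, 79.1 and 26.6 CPM. These 3 were 6.40-fold, 6.5-fold and 11.6-fold lower at E14.5 than at E11.5. Eno1 (enolase 1, chr4:150236721-150248879, plus strand) read 414, 177, 64.4 and 19.2 CPM, 21.5-fold lower at E14.5 (18.7 to 24.9). With germ cells picked by marker count the order of the pair turned, at log2 ratios of -3.42 for Eno1 and -3.98 for Pfkp. Ldha (lactate dehydrogenase A, chr7:46841475-46855627, plus strand) read 97.0, 78.4, 50.1 and 18.0 CPM, 5.37-fold lower at E14.5 (4.58 to 6.33). After E11.5 no member had a higher level at a stage than at the stage before it, with 2 exceptions among the alternatives. With germ cells picked by marker count, the log2 ratio of Tpi1 at E13.5 over E12.5 was 0.34, and relative to the median gene that of Gpi1 at E12.5 over E11.5 was 0.0040. Germ cells picked by marker count also gave smaller E14.5 over E11.5 differences for Ldha and Tpi1, at log2 ratios of -1.28 and -1.22, against -2.43 and -2.40. The smallest step was that of Gpi1 at E12.5, where the ratio to E11.5 was 0.942 (0.869 to 1.02) and its interval held no change.

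**Figure D1:**
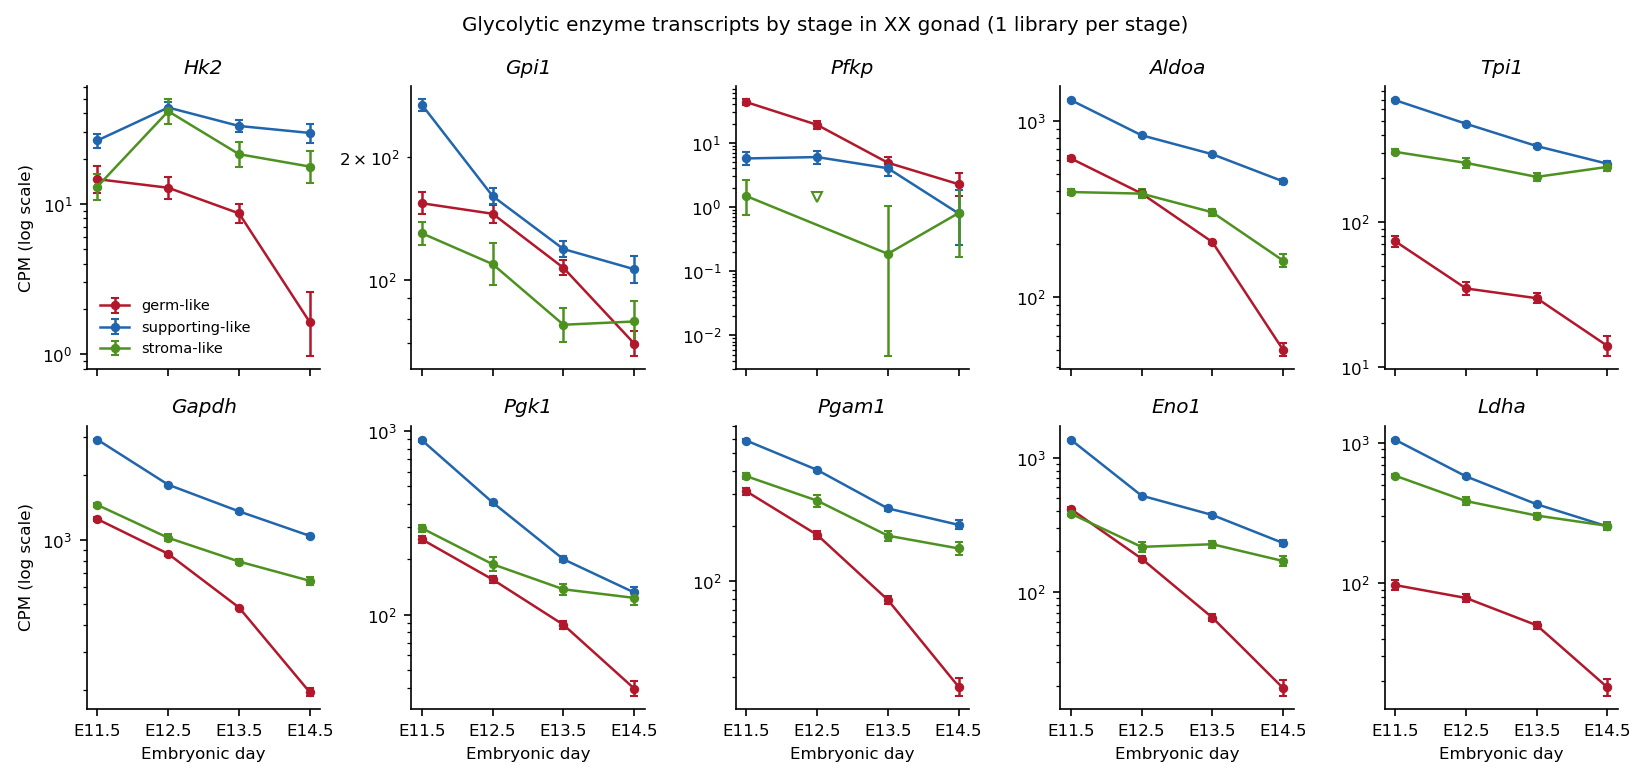
CPM of each of the 10 enzymes (log scale, a scale of its own in each panel) by embryonic day in germ-like, supporting-like and stroma-like cells; bars are exact Poisson 95% intervals of 1 library each, and an open triangle is the upper limit where no UMI was counted. Germ-like levels are lower at each later stage in all 10 panels, and Pfkp is the panel in which germ-like cells lie above the others at E11.5 and E12.5.

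The steps were unequal in time. At E12.5 the germ-like sum was 1.57-fold below E11.5 (1.54 to 1.60), and 3 of the 10 genes (Pfkp, Tpi1 and Eno1) were at least 2-fold lower, where 0.891% of 2807 genes were and 0.677% were as much higher. At E13.5 it was 1.83-fold below E12.5, with Pfkp, Pgam1 and Eno1 at least 2-fold lower, against 5.98% of all genes tested (9.04% higher). At E14.5 it was 2.57-fold below E13.5 (2.49 to 2.65), with 9 of the 10 at least 2-fold lower against 11.4% of all genes (12.6% higher). With germ cells picked by marker count 5 of the 10 were. Gpi1, 1.53-fold lower, was the exception in that last step. Hk2 had its largest step there, 5.30-fold lower (3.26 to 9.16; log2 ratio -2.41, and -1.07 with germ cells picked by marker count), and so did Aldoa, 4.10-fold lower (3.75 to 4.48).

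Clusters of germ-like cells within a library were also ordered. At E13.5, 31 cells led by Pou5f1, Utf1 and Dppa3 (genes of the pluripotency network) held 1858 summed CPM, and 615 cells led by Sall4 and Sox2 held 1235. The 31 cells were shallower, at a median of 6412 UMIs against 15572, and their sum rests on 403 UMIs. At the same stage, 396 cells led by Meioc, Rec8 and Stra8 (meiotic entry) held 1137, and 354 cells led by Tex12, Sycp1 and Sycp3 (synaptonemal complex) held 816. At E14.5, 233 cells led by Rhox5, Rhox9 and Stra8 held 787 summed CPM. Led by Stra8, with Prdm9 and Tex12 also among their leaders, 381 cells held 439, and 434 cells led by Sycp1, Syce3 and Smc1b held 268. Clusters with synaptonemal complex genes among their leaders were thus the lower ones in both libraries. The remaining 112 germ-like cells of E14.5, with Hormad1, Sycp3 and Syce3 among their leaders, held 306 and were shallow, at a median of 2316 UMIs. Gpi1 read 108 CPM in the Rhox5-led cluster and 49.6 CPM in the Sycp1-led cluster. At E12.5, 45 cells with Stra8, Smc1b, Sycp3 and Sycp1 among their leaders held 1549 summed CPM, below the 2163 and 1962 of the other germ-like clusters there. Among the 90 clusters of all libraries with at least 50 cells, the 3 lowest were E14.5 germ-like ones, and an erythroid-like cluster of E11.5 at 451 came next. Clusters of a library share its depth and free RNA, and none of these genes was used in the clustering.

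**Figure D2:**
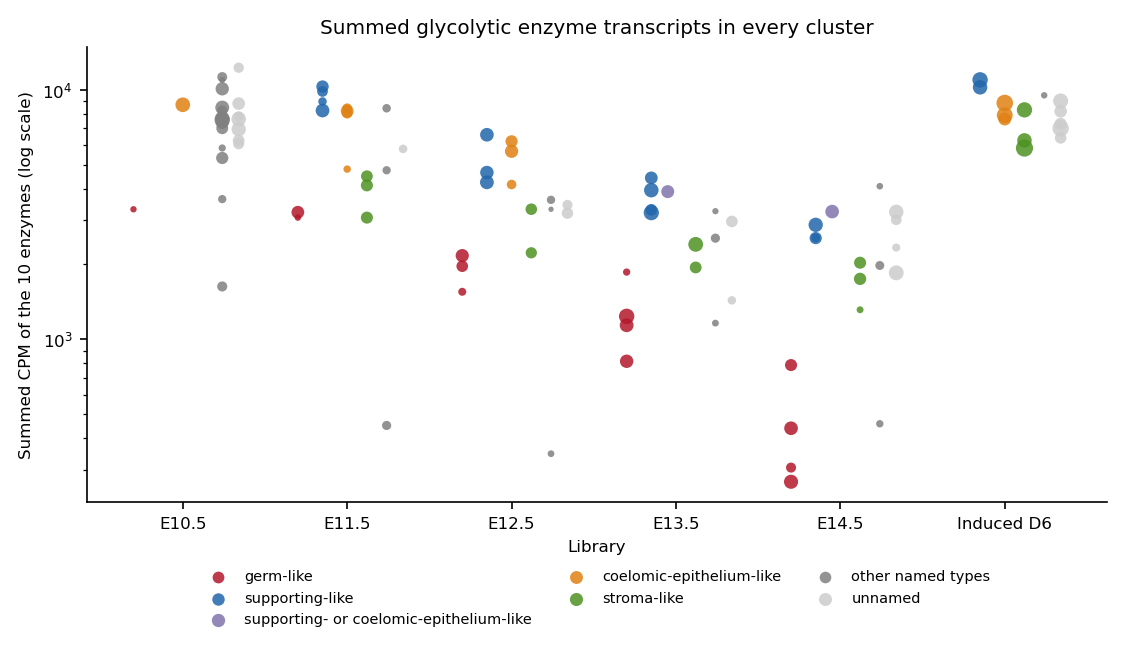
Summed CPM of the 10 enzymes (log scale) in every cluster of the 6 libraries, coloured by class, with point area growing with cell number. At E12.5 and later, germ-like clusters lie below the supporting-like, coelomic-epithelium-like and stroma-like clusters of their library. At E11.5 they lie at the level of the lowest stroma-like one, and the lowest, at 268, is an E14.5 germ-like cluster.

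To compare detection at equal depth, every germ-like cell was thinned to 3000 UMIs, which left out 12 of 311 cells at E11.5 and 114 of 1160 at E14.5. Gapdh was detected in 38.2% of cells at E14.5 (35.2 to 41.2, exact Clopper-Pearson), against 97.0% at E11.5 (94.4 to 98.6). Ldha was detected in 5.45% at E14.5 (57 of 1046 cells), against 23.1% at E11.5 (69 of 299). Without thinning, the Ldha shares were 14.7% at E14.5 and 71.7% at E11.5.

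Somatic classes of the gonad showed lower levels with stage as well, by smaller factors in the sum. Gpi1 and Pgk1 went the other way in supporting-like cells. Their E14.5 over E11.5 log2 ratios were -1.34 and -2.76 there, against -1.14 and -2.70 in germ-like cells. In supporting-like cells, summed CPM was 9133, 5237, 3686 and 2708 E11.5 through E14.5, so that E14.5 stood 3.37-fold below E11.5 (3.32 to 3.43). With unnamed clusters put to their best marker set it stood 3.10-fold below. The log2 ratio of the sum was -1.75, and -1.39 under the stricter cell filter, which left 170 supporting-like cells at E14.5. In stroma-like cells summed CPM was 3936, 2881, 2245 and 1844, and E14.5 stood 2.13-fold below E11.5 (2.08 to 2.19). At least 2-fold lower were 9 of the 10 genes in supporting-like cells, against 17% of all genes tested (8.48% higher), and 6 of the 10 in stroma-like cells, against 15.8% (3.67% higher). No member was 2-fold higher in either. With stricter limits on genes and mitochondrial UMIs the supporting-like count was 6, as Aldoa, Tpi1 and Pfkp stood at log2 ratios of -0.88, -0.72 and -0.05, against -1.53, -1.46 and -2.85. The median of all genes was itself at -0.25 in supporting-like and -0.35 in stroma-like cells on the log2 scale, and with the median gene set to 0 no member was 2-fold lower in stroma-like cells. Endothelium-like cells held 1975 summed CPM at E14.5 (71 cells) and 4756 at E11.5 (52 cells). Supporting markers summed to 1335 CPM in those endothelium-like cells at E14.5 and 157 at E11.5, and their part in that difference was not tested.

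Levels in supporting-like cells were lower at every later stage for 8 of the 10 genes. Gapdh read 2927, 1806, 1357 and 1043 CPM E11.5 through E14.5, Aldoa 1321, 833, 650 and 456, and Eno1 1360, 521, 374 and 231. Pgk1 read 892, 408, 200 and 132 CPM, Ldha 1055, 578, 366 and 254, and Tpi1 693, 476, 334 and 252. Pgam1 read 585, 405, 250 and 203 CPM and Gpi1 268, 160, 119 and 106. Pfkp had few UMIs in supporting-like cells, 74, 72, 60 and 5. In stroma-like cells Gapdh read 1453, 1021, 792 and 644 CPM over the same stages, Ldha 585, 385, 304 and 257, and Aldoa 396, 388, 304 and 162. Aldoa was thus close at E11.5 and E12.5 there, and Pfkp had at most 11 UMIs in any stroma-like class of the embryo.

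The order of the genes was not the same in each class. In supporting-like cells, Pgk1 and Eno1 led among the 9 genes other than Pfkp (7.19-fold lower, from 5 and 74 UMIs), with Pgk1 at 132 CPM at E14.5 and 892 at E11.5 (6.76-fold lower, 6.30 to 7.26) and Eno1 at 231 and 1360 CPM (5.88-fold lower, 5.58 to 6.21). Ldha stood at 254 CPM at E14.5 and 1055 at E11.5, 4.15-fold lower (3.94 to 4.38). Aldoa, Gapdh, Pgam1, Tpi1 and Gpi1 lay between 2.53-fold and 2.90-fold lower. Hk2 was the member that stood above its E11.5 level at E14.5 in both somatic classes. In supporting-like cells it read 26.5, 43.8, 33.0 and 29.7 CPM E11.5 through E14.5, and in stroma-like cells 13.1, 41.4, 21.4 and 17.7 CPM. Its E14.5 over E11.5 ratio was 1.12 (0.934 to 1.34) in supporting-like and 1.36 (0.978 to 1.88) in stroma-like cells, both intervals holding no change, and as mean UMIs per cell the sign turned in both. In germ-like cells Hk2 was 8.95-fold lower (5.38 to 15.7), with 18 UMIs at E14.5 and 96 at E11.5, a log2 ratio of -3.16 that was -1.29 with germ cells picked by marker count. Tpi1 was 1.27-fold lower in stroma-like cells (1.17 to 1.37), at 240 CPM at E14.5 and 305 at E11.5. Pgk1 was the gene most alike in germ-like and supporting-like cells, with log2 ratios of -2.70 and -2.76, while those of Aldoa were -3.61 and -1.53.

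**Figure D3:**
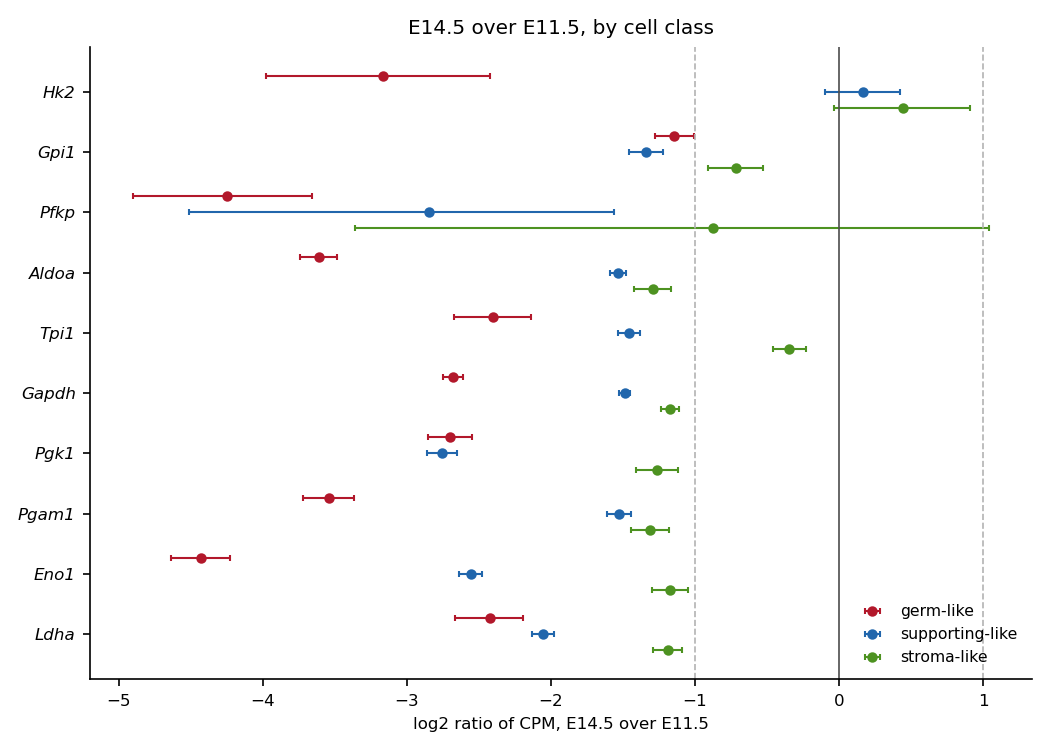
Log2 ratio of CPM, E14.5 over E11.5, for each enzyme in germ-like, supporting-like and stroma-like cells, with exact conditional 95% intervals for counting error; dashed lines mark 2-fold. All 10 germ-like points lie below the lower line, from -1.14 for Gpi1 to -4.43 for Eno1, while Hk2 is above 0 in the 2 somatic classes.

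Set against supporting-like cells of the same library, germ-like cells held less of the pathway at each stage. Summed CPM was 3226 in germ-like and 9133 in supporting-like cells at E11.5 (2.83-fold lower, 2.79 to 2.87), and 2051 and 5237 at E12.5 (2.55-fold lower). At E13.5 it was 1122 in germ-like and 3686 in supporting-like cells (3.29-fold lower), and 436 and 2708 at E14.5 (6.21-fold lower, 6.01 to 6.41). Genes at least 2-fold lower in germ-like cells numbered 6, 8, 8 and 8 of the 10 E11.5 through E14.5, against 24%, 24.1%, 20% and 26.8% of all genes tested. At least 2-fold higher was 1 gene, Pfkp, at E11.5, E12.5 and E14.5 and none at E13.5, against 23.3%, 23.5%, 34.2% and 36.7% of all genes. The median of all genes lay on the other side, between 0.11 and 0.49 on the log2 scale.

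Ldha and Tpi1 differed most at E11.5, E12.5 and E13.5, and at E14.5 Hk2 reached them (18.2-fold lower, 11.2 to 31.4, from 18 germ-like and 187 supporting-like UMIs). With germ cells picked by marker count it did not, at a log2 ratio of -2.30 against -2.96 for Tpi1 and -2.63 for Ldha. Ldha stood at 97.0 CPM in germ-like and 1055 in supporting-like cells at E11.5, 10.9-fold lower, and at 18.0 and 254 CPM at E14.5, 14.1-fold lower (12.1 to 16.4). Tpi1 stood at 73.7 CPM in germ-like and 693 in supporting-like cells at E11.5, 9.41-fold lower (8.58 to 10.3), and at 14 and 252 CPM at E14.5, 18.1-fold lower (15.3 to 21.5). After thinning to 3000 UMIs, which left out 8 of 853 supporting-like cells at E11.5 and 50 of 776 at E14.5, Ldha was found in 23.1% of germ-like and 87.2% of supporting-like cells at E11.5, and Tpi1 in 24.1% and 84.6%. Free RNA adds UMIs to all droplets, so each class was also read for the markers of the other. Supporting markers in germ-like cells reached 0.917%, 0.715%, 2.88% and 1.88% of their supporting-like level E11.5 through E14.5. Ldha reached 9.19%, 13.6%, 13.7% and 7.10% of its own. Ldha was also present in other classes (1005 CPM in coelomic-epithelium-like and 585 in stroma-like cells at E11.5). Its shares are therefore not comparable with those of the markers, and the part of free RNA in germ-like Ldha was not tested. Germ markers in supporting-like cells reached 1.83%, 1.28%, 2.44% and 2.74% of their germ-like level.

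Gpi1 and Pfkp did not follow the others. Gpi1 stood at 145 CPM in germ-like and 160 in supporting-like cells at E12.5, and at 107 and 119 CPM at E13.5. These were the smallest gaps of any member, and as mean UMIs per cell Gpi1 was higher in germ-like cells at both stages. Pfkp was the member with more transcripts in germ-like cells, at 43.1 CPM against 5.71 in supporting-like cells at E11.5, a ratio of 7.54 (5.82 to 9.88) from 283 and 74 UMIs. At E12.5 it stood at 19.1 CPM in germ-like and 6.00 in supporting-like cells, and at E13.5 at 4.89 and 4.02 CPM. Thinned to 3000 UMIs, 15.7% of germ-like cells held a Pfkp UMI at E11.5 (11.8 to 20.4), against 1.89% of supporting-like cells (1.09 to 3.06), and at E13.5 the shares were 1.26% and 1.16%. At E14.5 only 25 germ-like and 5 supporting-like UMIs were counted, and the direction depended on the cell filter: the log2 ratio was 1.51, and -1.28 with stricter limits on genes and mitochondrial UMIs.

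**Figure D4:**
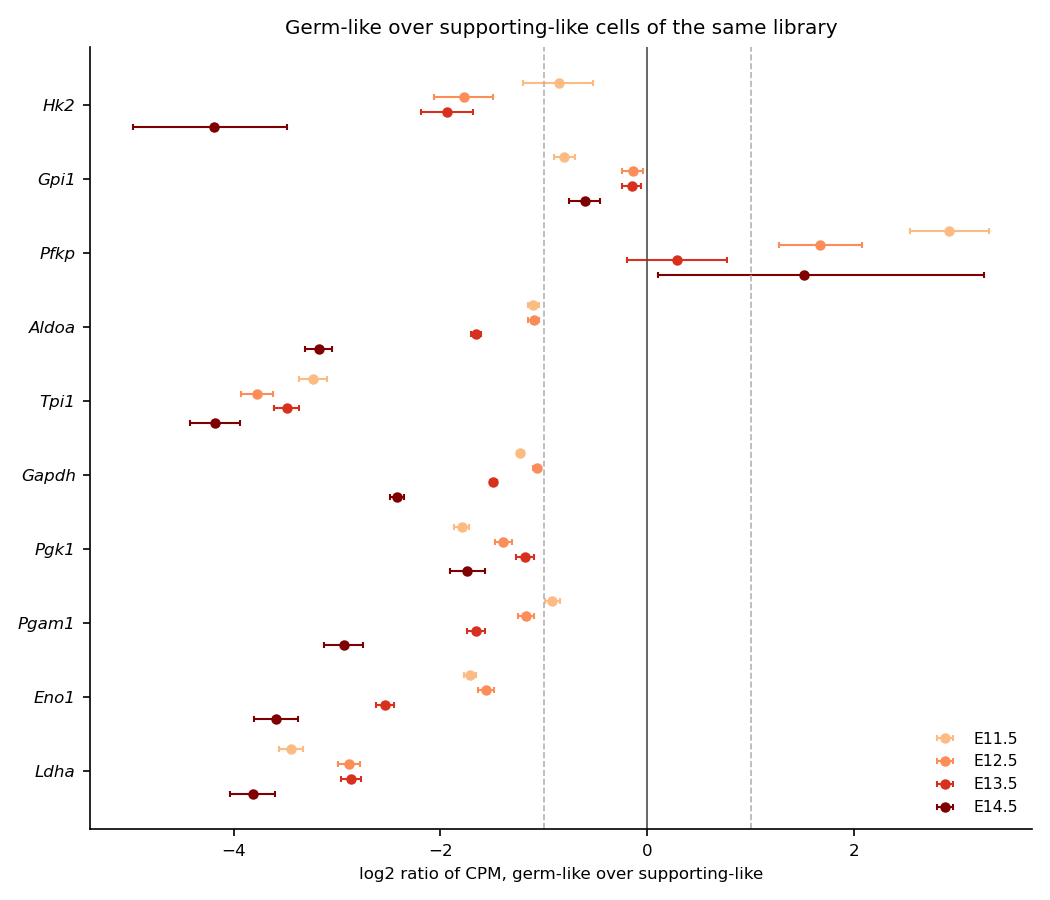
Log2 ratio of CPM, germ-like over supporting-like cells, for each enzyme in the libraries of E11.5, E12.5, E13.5 and E14.5, with exact conditional 95% intervals for counting error; dashed lines mark 2-fold. Ldha and Tpi1 lie between -2.87 and -4.18 and Pfkp is above 0, with an interval that crosses 0 at E13.5 and a sign that turns at E14.5 under the stricter cell filter (-1.28).

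The isozyme make-up of single steps differed between the classes. Pfkp supplied 50.6% of the UMIs of the 3 phosphofructokinase genes (Pfkp, Pfkl and Pfkm) in germ-like cells at E11.5 (46.4 to 54.9), against 3.84% in supporting-like cells (3.03 to 4.79). The Pfkp share in germ-like cells was 45.8%, 22.1% and 15.1% at the 3 later stages, and in supporting-like cells it stayed between 1.37% and 7.62%. The liver-type gene Pfkl was by contrast 4.32-fold lower in germ-like cells at E11.5, at 27.6 CPM and 119 in supporting-like cells. Ldha supplied 27.7%, 24.2%, 32% and 30.9% of lactate dehydrogenase UMIs (Ldha, Ldhb and Ldhc) in germ-like cells E11.5 through E14.5. In supporting-like cells its share was 47.3%, 43.7%, 58.6% and 57.4%. The share of the A-type gene was thus lower in germ-like cells in each of the 4 libraries.

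Neighbouring pathways in germ-like cells, read from lists, did not all move with the 10 enzymes at E14.5 over E11.5. Of the other glycolytic isozymes, 2 of 16 reached 50 CPM and both were lower, Pkm (pyruvate kinase) at 114 CPM at E14.5 against 969 at E11.5 and Ldhb at 37.1 against 248. Of 14 tricarboxylic acid cycle genes at 50 CPM, 5 were at least 2-fold lower and 4 at least 2-fold higher, beside 25.3% and 29.3% of all genes, with a median log2 ratio of -0.40. Mdh2 (malate dehydrogenase) and Suclg1 were lower, at log2 ratios of -2.64 and -2.04, while Ogdh, Cs (citrate synthase) and Sdhc were higher by 1.32, 1.09 and 1.06. Of 15 nuclear respiratory chain genes 3 were lower, all subunits of the ATP synthase (Atp5b, Atp5c1 and Atp5a1), beside the same 25.3% of all genes, and the median was -0.14. Cox4i1, of cytochrome oxidase, stood at 2005 CPM at E14.5 and 1700 at E11.5. Of the 4 hypoxia response genes at 50 CPM, Mif was lower (479 CPM at E14.5, 2001 at E11.5) and Bnip3 was at 70.7 and 61.5 CPM. In the pentose phosphate list Tkt and Taldo1 were lower by 2.17 and 1.92 on the log2 scale and Pgd higher by 1.21. Among transporters and control genes, Tigar (a fructose bisphosphatase that slows glycolysis) was at 7.34 CPM at E14.5 against 87.8 at E11.5, and Mpc2, of the mitochondrial pyruvate carrier, was 2.46-fold higher. Pcx (pyruvate carboxylase) was 6.55-fold higher, at 86.8 CPM against 13.2. Mycn, of the MYC family, was at 9.52 CPM at E14.5 against 53.9 at E11.5. The lists are described by their counts, and nothing about them was tested.

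Against supporting-like cells of E14.5, germ-like cells thus held 6.21-fold less of the 10 enzymes, while 8 of 15 respiratory chain genes passed 2-fold upwards and 0 downwards (36.7% and 26.8% of all genes did), with a median log2 ratio of 1.05 where the median of all genes was 0.41. Ndufs1 and Cox5a were higher there by 2.29 and 2.24 on the log2 scale. In supporting-like cells at E14.5 over E11.5, the respiratory chain list stood at a median of -0.97, where the median of all genes was -0.25. At least 2-fold lower were 6 of its 14 genes, against 17% of all genes (8.48% higher). All 4 other isozymes at 50 CPM (Ldhb, Pkm, Hk1 and Pfkl) were at least 2-fold lower too.

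Induced D6 cells held more of the pathway than their E12.5 counterparts in all 3 classes. In supporting-like cells summed CPM was 10629 in Induced D6 and 5237 at E12.5, a ratio of 2.03 (2.01 to 2.05). In coelomic-epithelium-like cells it was 8265 in Induced D6 and 5671 at E12.5 (ratio 1.46, 1.44 to 1.47), and in stroma-like cells 6699 and 2881 (ratio 2.33, 2.27 to 2.38). Genes at least 2-fold higher in Induced D6 numbered 5, 3 and 8 of the 10 in these classes, against 11.7%, 12% and 11.2% of all genes tested. None was 2-fold lower, where 3.49%, 3.88% and 3.59% of all genes were. With the gonadal somatic classes joined, the sum was 8277 CPM in Induced D6 and 5145 at E12.5, and 5 genes were at least 2-fold higher against 12.4% of all genes (3.49% lower). The strain, the culture and the library differ together between Induced D6 and E12.5 and cannot be told apart. As mean UMIs per cell, which leaves in the shallower depth of Induced D6 (median 6632 UMIs per supporting-like cell against 9219 at E12.5), 1, 1 and 5 genes were 2-fold higher. The coelomic-epithelium-like sum then turned to a log2 ratio of -0.26, and the joined sum stood at -0.01.

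Gpi1, Ldha and Aldoa stood at the head in the supporting-like class. Gpi1 was at 552 CPM in Induced D6 and 160 at E12.5 (ratio 3.45, 3.27 to 3.64), Ldha at 1634 against 578 (2.83, 2.74 to 2.91) and Aldoa at 2254 against 833 (2.71, 2.64 to 2.77). Pgam1 was at 932 CPM in Induced D6 and 405 at E12.5, and Pfkp at 14.7 against 6.00 from 113 and 72 UMIs. Hk2, Gapdh, Tpi1, Eno1 and Pgk1 were between 1.49 and 1.80 times their E12.5 level, short of 2-fold. In stroma-like cells Ldha led, at 1398 CPM in Induced D6 and 385 at E12.5 (3.63, 3.40 to 3.87), and Aldoa followed at 1246 against 388 (3.21, 3.01 to 3.42). Pfkp had 38 UMIs in Induced D6 stroma-like cells and 0 at E12.5, and it counts among the 8 genes above through a floor of 3 UMIs over the E12.5 class. Gapdh was the member nearest to no change in both remaining classes, at 1457 CPM in Induced D6 and 1021 at E12.5 in stroma-like cells, and at 2355 and 2364 CPM in coelomic-epithelium-like cells (ratio 0.996, 0.979 to 1.01). Hk2 in coelomic-epithelium-like cells was at 41.7 CPM in Induced D6 and 55.9 at E12.5 (0.746, 0.661 to 0.842).

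Genes of the hypoxia response list were higher in supporting-like and stroma-like cells of Induced D6 too, by more than the enzymes. In supporting-like cells 11 of 15 such genes at 50 CPM were at least 2-fold higher, against 11.7% of all genes. Their median log2 ratio was 1.82 where the median of all genes was 0.23. Bnip3 (mitophagy receptor) was at 376 CPM in Induced D6 and 37.1 at E12.5, and Ndufa4l2 at 85.8 against 2.33. Slc2a1, the glucose transporter GLUT1, was at 108 CPM against 14.4 (ratio 7.48, 6.34 to 8.86), and Slc16a3, the lactate exporter MCT4, at 196 against 20.3 (9.64, 8.41 to 11.1). The tricarboxylic acid cycle (14 genes) and the respiratory chain (14 genes) had medians of 0.18 and 0.18, with none 2-fold changed either way. In stroma-like cells 9 of 12 hypoxia response genes were at least 2-fold higher, against 11.2% of all genes (median 2.21, and 0.17 for all genes). Bnip3 stood there at 297 CPM in Induced D6 and 20.1 at E12.5, and Slc16a3 at 158 against 12. The medians of the cycle and the chain there were 0.08 and 0.03. Slc2a1 stands in the hypoxia response list and in that of transporters and control genes, and Slc16a3 in the latter only.

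**Figure D5:**
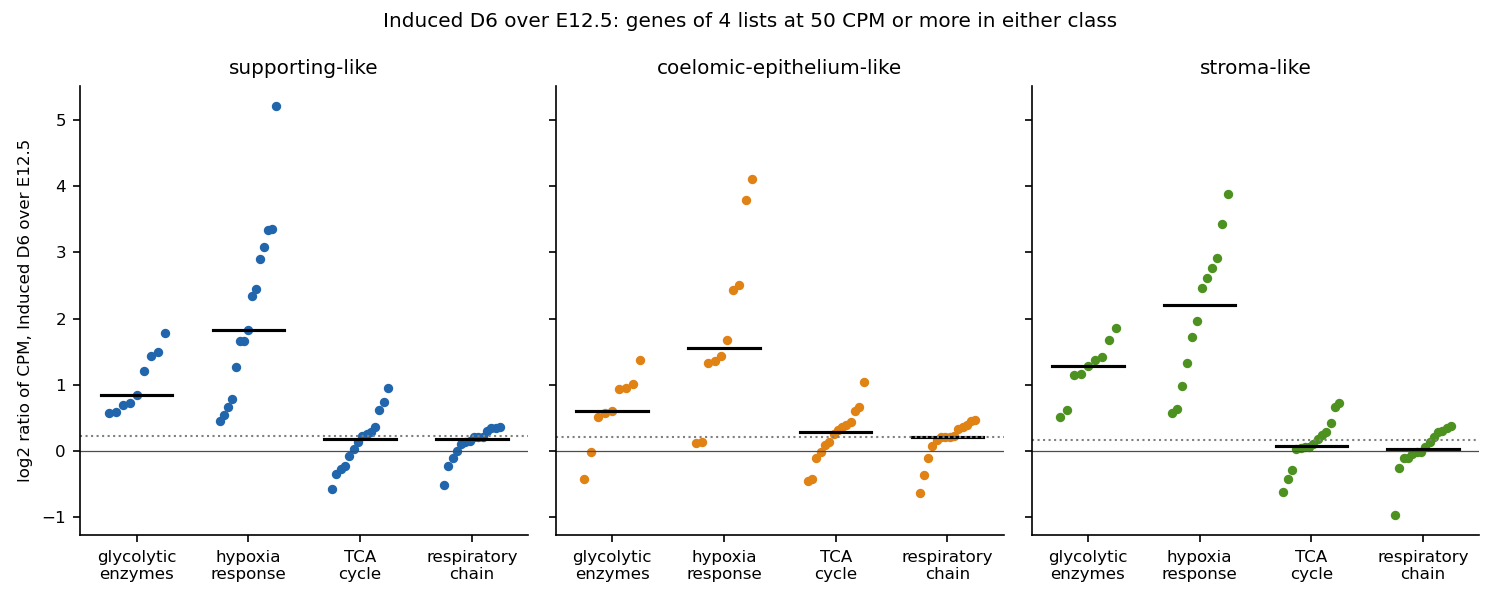
Log2 ratio of CPM, Induced D6 over E12.5, for the genes of 4 lists at 50 CPM or more in either class sum; each point is a gene, the black bar is the list's median and the dotted line the median of all genes. In supporting-like cells the hypoxia response median is 1.82 and that of the respiratory chain 0.18, with the enzymes between them.

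Against E11.5, an earlier stage, the summed ratios of Induced D6 were nearer to 1. The median member had log2 ratios of 0.65, 0.37 and 1.05 in supporting-like, coelomic-epithelium-like and stroma-like cells. Medians of all genes were 0.11, 0.06 and -0.01. At least 2-fold higher were 3, 1 and 5 of the 10, against 7.81%, 7.26% and 7.13% of all genes. None was 2-fold lower, where 4.01%, 3.79% and 3.74% of all genes were. The sum in supporting-like cells was 10629 CPM in Induced D6 and 9133 at E11.5 (ratio 1.16, 1.15 to 1.17), and in coelomic-epithelium-like cells 8265 and 8063 (1.02). In stroma-like cells it was 6699 CPM in Induced D6 and 3936 at E11.5 (1.70, 1.68 to 1.73), where Gapdh was at 1457 and 1453 CPM, the smallest difference, and Hk2 was 4.87-fold higher, the largest. In supporting-like cells members differed in both directions. Gpi1 was 2.06-fold and Hk2 2.98-fold higher in Induced D6 supporting-like cells, while Eno1 was at 781 CPM in Induced D6 and 1360 at E11.5 (1.74-fold lower, 1.69 to 1.79) and Pgk1 at 608 and 892 CPM (1.47-fold lower).

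Coelomic-epithelium-like cells, the surface layer of the gonad, held 8707, 8063 and 5671 summed CPM at E10.5, E11.5 and E12.5. Gapdh read 3672, 3041 and 2364 CPM there, Ldha 1198, 1005 and 627, Aldoa 853, 926 and 735, and Gpi1 204, 227 and 162. Hk2 ran in the other order, at 19.7, 28.2 and 55.9 CPM. The gonadal epithelium (supporting-like, coelomic-epithelium-like and clusters with both names) summed to 8704 CPM at E11.5 and 8707 at E10.5. At E10.5 it held only the 510 coelomic-epithelium-like cells. At E11.5 it joined 853 supporting-like and 572 coelomic-epithelium-like cells, so stage and make-up differ together. In this comparison Gapdh had a ratio of 0.810 (0.795 to 0.825) and Eno1 one of 1.41 (1.35 to 1.46). Eno1 read 834 and 893 CPM in coelomic-epithelium-like cells at E10.5 and E11.5, and 1360 in supporting-like cells at E11.5. Only Pfkp passed 2-fold, with 102 and 3 UMIs, where 9.59% of all genes tested did so upwards and 6.59% downwards. As mean UMIs per cell, 7 of the 10 passed 2-fold.

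Over all class sums of at least 50 cells (26 class sums of the 6 libraries), 8 members ran closely with the sum of the other 9 and 2 did not. Pearson's r of log2(CPM + 10) was 0.972 for Pgk1 and Eno1, 0.967 for Pgam1, 0.965 for Gapdh, 0.956 for Aldoa, 0.915 for Ldha, 0.911 for Tpi1 and 0.847 for Gpi1. It was 0.640 for Hk2 and 0.316 for Pfkp. Class sums of a library share its depth and free RNA, so these values are descriptions. The highest level of Gpi1, Aldoa, Tpi1, Pgam1 and Hk2 was in Induced D6 supporting-like cells, that of Eno1 and Pgk1 in E11.5 supporting-like cells, that of Gapdh in E10.5 coelomic-epithelium-like cells (3672 CPM) and that of Ldha in E11.5 leukocyte-like cells (1840 CPM, 58 cells). Pfkp had its highest level in E11.5 germ-like cells. The lowest level of Aldoa, Tpi1, Gapdh, Eno1 and Ldha was in E14.5 germ-like cells, and that of the other 5 in E11.5 erythroid-like cells, where Hk2 and Pfkp had no UMI; Pfkp had none in E12.5 stroma-like cells either. Outside the pathway, the genes whose profile was most like the summed members were Got2 (r = 0.956; mitochondrial aspartate aminotransferase), Pdcd6 (0.937), Mdh1 (0.936; cytosolic malate dehydrogenase), Acads (0.928), Pcbp1 (0.926), Cdk4 (0.920), Gm16286 (0.919), Slc25a3 (0.919; mitochondrial phosphate carrier), Snx5 (0.919) and Paics (0.918).

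Near-identical gene copies bear on the count of 2 members. Of the 451 words of 50 bases in the last 500 bases of the transcript, where 3′ reads fall, 85.8% of those of Gapdh also occur in 3 other listed genes (Gm10358, Gm15294 and Gm3839) and 75.2% of those of Eno1 occur in Eno1b. Reads from these stretches cannot be assigned to 1 gene, so the Gapdh and Eno1 levels are uncertain. For Gpi1 the share was 4.21%, and for the other 7 it was 0 among listed genes.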

How the data were processed

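The libraries were made with 10x Chromium 3′ version 2 chemistry, per the labels' protocols. The authors deposited raw UMI counts per gene and barcode, counted with Cell Ranger 3.0.2 on mm10 per the submitters' processing notes; how cells were called is not given in the labels. Cells under 500 genes or over 10% mitochondrial UMIs were dropped. Scrublet (scanpy 1.11.5) called only 0.016% of E10.5 cells at its own threshold, so the top-scored cells were removed at 0.8% per 1000 cells. Each library was clustered alone (2000 variable genes without the 65 pathway genes, 30 components, 15 neighbours, Leiden resolution 1, seed 0) and clusters were named from 20 marker sets; the scoring limits were chosen with the data in view. In E14.5, 481 cells led by Hbb-y and close to the supporting set, and 536 close to the stroma set, stayed unnamed with other smaller clusters. Counts were summed per class and scaled to 1e6 (CPM). Intervals are exact (Poisson for CPM, conditional binomial for ratios, Clopper-Pearson for shares), at 95%. A gene was called at 2-fold; the background holds genes at 50 CPM or more in either class, while all 10 members were counted whatever their level (8 of them reached 50 CPM in most comparisons, Hk2 and Pfkp did not). Members and lists were chosen with earlier results of these data known. Named genes are the 10 members, up to 3 genes in each direction per list, and the 10 genes with the highest r. The ratio code was tested on simulated data. Gene positions are GENCODE vM21 (GRCm38).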

Additional observations from a re-analysis of the deposited data

Results flagged for a closer look

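UMIs assigned to Eno1b, a copy of Eno1 that no comparison uses, appeared in every library: 1113, 1179, 337, 390 and 437 over the stages E10.5 through E14.5 and 207 in Induced D6, all above the 3 UMIs that a count of 0 allows. They amounted to 3.69%, 3.64%, 2.48%, 3.68% and 7.01% of the Eno1 level at E10.5 through E14.5, and to 0.733% in Induced D6. Eno1b shares 75.2% of the Eno1 words described above, and the source of these UMIs was not tested.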

How the results depend on the processing

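No paired analysis was possible because each group was 1 library with no replicate, and for the same reason none could be left out. Of the main counts and shares under the alternatives, 326 kept their direction and size and 28 moved. The log2 ratios of the sums are among the other values, of which 1219 kept theirs and 683 moved by more than counting error. Of these other values 1, past 2-fold, turned its sign. Values under 2-fold that turned theirs are among those that moved or stayed within counting error. Mean UMIs per cell in place of CPM gave 6 members lower in germ-like cells at E13.5 over E12.5, 7 higher in gonadal epithelium at E11.5 over E10.5, and 3 lower in germ-like over supporting-like cells at E12.5. It gave, for Induced D6 over E12.5, 1 higher in supporting-like cells, 1 higher and 1 lower in coelomic-epithelium-like cells, 5 higher in stroma-like cells and 0 in the joined gonadal somatic cells. Relative to the median gene, 0 stroma-like members were lower at E14.5 over E11.5 and 2 higher in joined Induced D6 cells. Without mitochondrial, ribosomal and haemoglobin genes these were 3 and 2, and at resolution 0.5, 1 stroma-like member was higher. Germ cells picked by marker count gave 5 lower at E14.5 over E13.5. For germ-like over supporting-like cells at E14.5, 0 members were higher under the stricter filter, without doublet removal, at resolution 0.5 and 2, with pathway genes in the clustering, and with unnamed clusters put to their best marker set (an alternative added after the data were seen); under the stricter filter the Pfkp log2 ratio reversed to -1.28. Thinned to 2000 UMIs, Ldha and Tpi1 were found in 15.1% and 14.1% of germ-like and 80.8% and 73.7% of supporting-like cells at E11.5, and in 3.24% and 2.5% of germ-like and 37.8% and 42.3% of supporting-like cells at E14.5. The summed germ-like log2 ratio of E14.5 over E11.5 stayed between -4.04 and -2.39. Depth limits Hk2 and Pfkp most, with 18 and 25 UMIs in germ-like cells at E14.5. The causes of these shifts were not tested.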
